A study of Mus musculus with 39 samples.

Results

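The transcription factor genes Bhlhe23, Hand1, Cdx4, Dlx2, Gata2, Ovol2, Hic1, Gfi1 and Maf, known for their roles in later development, were followed through mouse oocytes, fertilized embryos, cloned embryos and nuclear donor cells. They are 9 of the 18905 genes that the RefSeq mouse annotation named on the array, and 12 of its 41174 probes measure them, with 2 probes each for Gata2, Ovol2 and Maf. All 9 stand in the study's list of transcription genes that were higher in fertilized 2-cell embryos than in oocytes, low in cloned embryos, and level with fertilized embryos after trichostatin A. The list was made from the OC, IVF, TSA(–) and TSA(+) arrays described here, so the levels in those groups are given as a description and no p-value is attached to them for the 9 genes.

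The 39 arrays held 7 groups, all of the (B6xDBA/2)F1 strain, and the oocytes and donor cells came from superovulated females aged 8 to 10 weeks. OC were metaphase II unfertilized oocytes (n = 7 arrays). IVF were embryos fertilized in vitro and cultured for 24 h to the 2-cell stage (n = 6). TSA(–) were 2-cell embryos cloned by somatic cell nuclear transfer (SCNT) from cumulus cells, the somatic cells that surround the ovulated oocyte, with no drug (n = 8), and TSA(+) were the same with 5 nM trichostatin A, an inhibitor of histone deacetylases, for 8 h from activation (n = 6). In 2 further groups, cloned embryos without trichostatin A received Spi-C mRNA at the pronuclear stage, at 1.0 mg/ml (Spi-C 1.0, n = 4) or 0.1 mg/ml (Spi-C 0.1, n = 4), and together they are called Spi-C NT. Cumulus were the donor cells (n = 4). Each array held the amplified RNA of a pool of 10 oocytes or embryos, or of 500 cumulus cells, so fewer cells with a transcript and less transcript per cell cannot be told apart. Pools count as biological replicates in the series' design, and every p-value measures the spread between such pools.

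In the mouse the embryonic genome starts transcription within the first cell cycle, with its major wave at the 2-cell stage, while RNA stored in the oocyte is degraded. A cloned embryo starts from a somatic nucleus whose chromatin must take up this programme, and transcription that fails to start at the 2-cell stage is a well known feature of cloning. The 9 genes are best known for work far later. Bhlhe23 and Hand1 encode basic helix-loop-helix (bHLH) factors, which bind DNA as dimers with ubiquitous E proteins. Cdx4 and Dlx2 encode homeodomain proteins. Gata2, Ovol2, Hic1 and Gfi1 encode zinc finger proteins, and Maf encodes a basic leucine zipper factor.

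A level below is the log2 of the processed signal of a probe minus the 75th percentile of its array on the same scale, so that 0 is the 75th percentile of the array. Levels of different probes were not compared with each other. "Well above background" is the scanner software's call for a spot against its local background, and a value without that call gives only a bound. Between 48.6% and 59.9% of all probes passed that call on the OC arrays, 58.2% to 65.7% on the Cumulus arrays and 66.8% to 77.5% on the 2-cell arrays. The number of arrays limits the precision of every difference. The OC, IVF, TSA(–) and TSA(+) arrays were read on an earlier scanner model and version of the scanner software than the Spi-C and Cumulus arrays, so that any difference between these sets of groups cannot be told apart from the scanner.

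The RefSeq table of GRCm38.p6 held promoters for 7 of the 9 genes, with 10 start sites. Spi-C, the factor whose mRNA was injected, belongs to the ETS family, and GAGGAA is a core bound by its closest relatives of the PU.1 type. The 250 bases before the start were searched on both strands for GAGGAA, and 2 of the 10 promoters held it, against 23.3% of the 32851 promoters in the table. The sequences below are those of the 2 genes whose levels differed most between the Spi-C doses, Bhlhe23 and Gata2 (with 2 start sites), and of the 2 genes that hold the motif, Ovol2 and Cdx4. Each runs 5′ to 3′ on the strand of its gene and ends with the base before the start, and capitals mark GAGGAA.
Bhlhe23, chr2:180776901-180777150, minus strand: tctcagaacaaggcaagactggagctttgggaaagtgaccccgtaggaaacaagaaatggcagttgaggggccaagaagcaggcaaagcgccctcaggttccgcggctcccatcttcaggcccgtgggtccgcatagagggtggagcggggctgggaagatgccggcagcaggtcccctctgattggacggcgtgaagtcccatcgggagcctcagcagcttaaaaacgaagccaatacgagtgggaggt
Gata2, chr6:88193641-88193890, plus strand: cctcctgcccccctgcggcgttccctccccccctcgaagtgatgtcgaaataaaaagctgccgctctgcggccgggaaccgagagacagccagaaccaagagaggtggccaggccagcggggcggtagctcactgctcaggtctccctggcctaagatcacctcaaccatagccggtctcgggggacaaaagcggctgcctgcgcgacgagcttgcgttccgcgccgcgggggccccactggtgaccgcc
Gata2, chr6:88198414-88198663, plus strand: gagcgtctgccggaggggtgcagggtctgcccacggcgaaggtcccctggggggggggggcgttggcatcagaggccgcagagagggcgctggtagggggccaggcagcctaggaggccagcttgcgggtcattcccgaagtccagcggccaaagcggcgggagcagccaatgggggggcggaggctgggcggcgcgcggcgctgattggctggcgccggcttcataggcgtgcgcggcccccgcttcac
Ovol2, chr2:144331363-144331612, minus strand: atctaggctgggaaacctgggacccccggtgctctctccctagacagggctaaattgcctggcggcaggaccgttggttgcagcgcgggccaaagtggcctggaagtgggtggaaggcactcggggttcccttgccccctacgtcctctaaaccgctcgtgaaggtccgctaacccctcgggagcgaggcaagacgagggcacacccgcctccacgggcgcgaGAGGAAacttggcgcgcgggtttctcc
Cdx4, chrX:103321148-103321397, plus strand: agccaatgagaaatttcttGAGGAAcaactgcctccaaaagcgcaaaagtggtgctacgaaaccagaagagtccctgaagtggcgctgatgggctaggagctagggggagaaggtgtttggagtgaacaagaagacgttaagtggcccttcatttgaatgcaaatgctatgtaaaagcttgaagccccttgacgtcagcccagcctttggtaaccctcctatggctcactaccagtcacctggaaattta
The letters GAGGAA lay 27 bases before the Ovol2 start and 231 bases before the Cdx4 start, on the strand shown in both. Neither Gata2 window nor the Bhlhe23 window held them. CCGGAA, the core of many other ETS factors, was in 0 of the 10 promoters, against 12.03% of all promoters. The TATA box, searched as TATAAA on both strands, was in 0 of 10, against 12.4%. A core of the GATA factors, AGATAA, was also in 0 of 10, against 9.99%. Other forms of that core were not searched, and the Dlx2 window, not printed here, holds TGATAA. CpG-rich sequence was common, with 6 of the 10 windows above 50% G and C and above 0.6 for observed over expected CpG, against 30.8% of all promoters. A match of letters is a description of the window, and the lack of one says nothing about binding elsewhere.

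Across the 4 groups of the study's selection, the genes were low or not above background in oocytes, bright in IVF embryos, and low but unequal between arrays in TSA(–) embryos. In the limma fit with Benjamini-Hochberg adjustment over all 39517 probes tested, all 9 genes were called higher in IVF than in OC, where 23.8% of all probes were called higher. All 9 were called lower in TSA(–) than in IVF, where 11.2% of probes were. Both counts restate how the genes were chosen. The median difference over the 9 genes was 4.36 for IVF minus OC beside −0.87 over all probes, −3.24 for TSA(–) minus IVF beside −0.04, and 1.41 for TSA(+) minus TSA(–) beside −0.10. On the 75th-percentile scale the whole OC to IVF comparison was thus shifted down, at a median of −0.87. TSA(–) lay under IVF for all 12 probes on each of the 3 slides and each of the 4 scan days that held both groups. This too restates how the genes were chosen, and the share of all probes that did so was not counted. The smallest of these differences within a slide was −0.08, for Gata2 probe A_52_P233441.

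**Figure D1:**
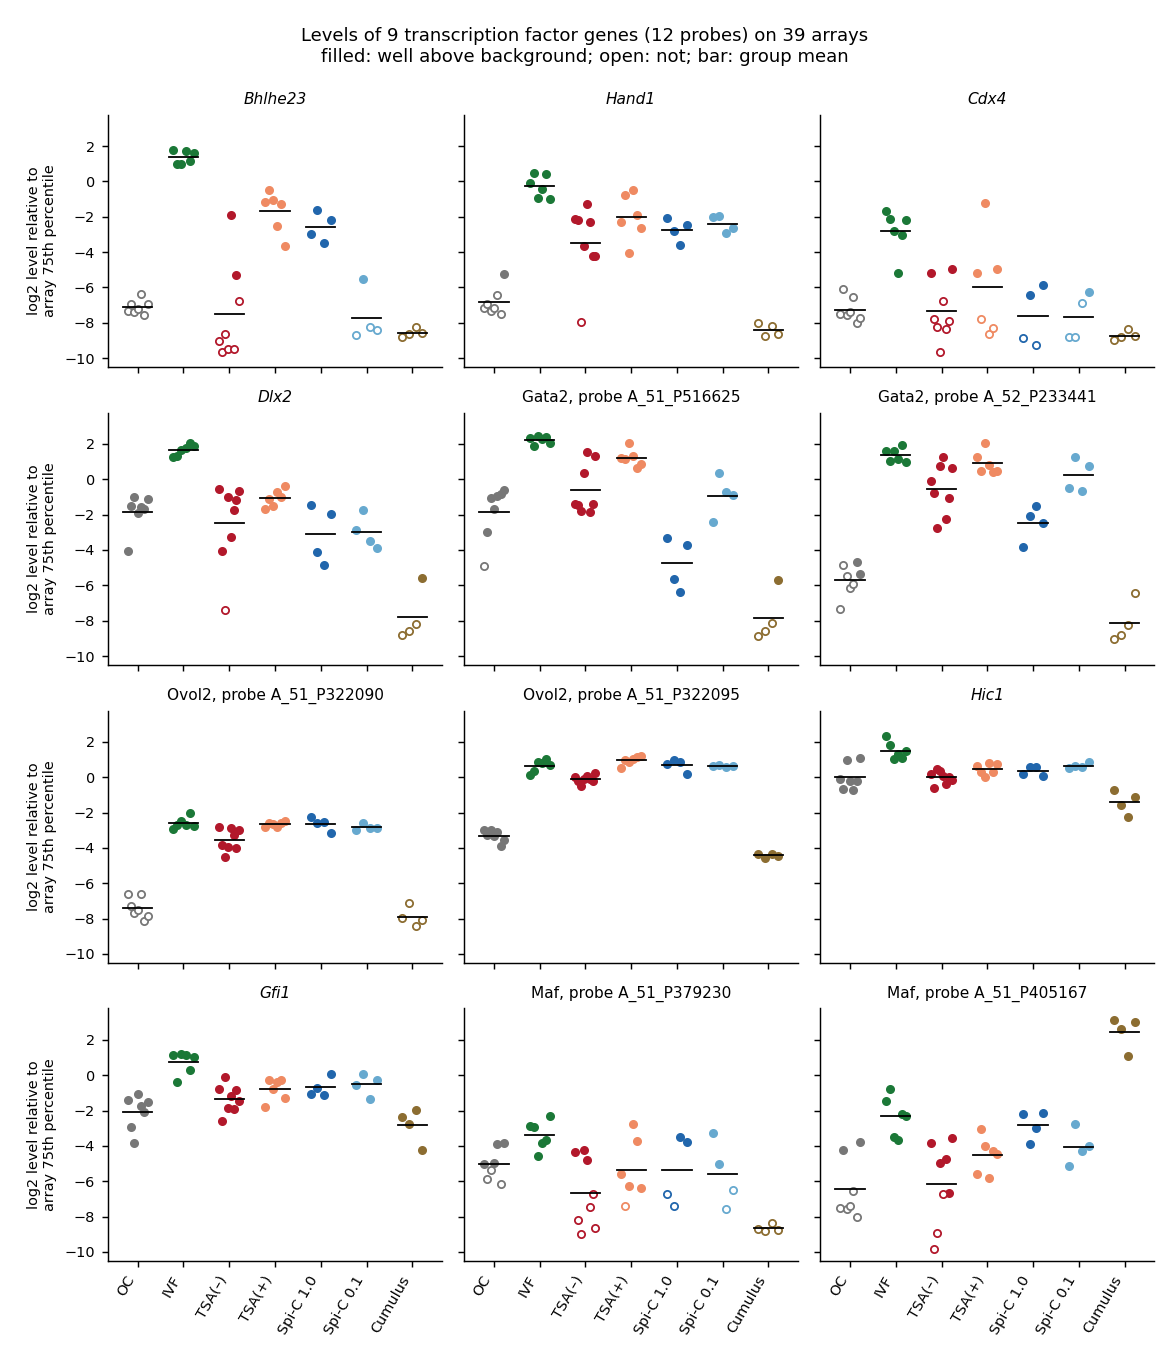
Level of each of the 12 probes of the 9 genes on every array, as log2 processed signal minus the array's 75th percentile, by group. Filled points are well above background, open points are not and bars are group means, and the TSA(–) arrays of Bhlhe23 spread from −9.63 to −1.89.

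Bhlhe23 (also called Bhlhb4), a bHLH repressor needed by bipolar neurons of the retina, was near or below background in most cloned embryos without treatment. On the 6 IVF arrays its level had a lowest, median and highest value of 0.96, 1.38 and 1.75. No OC array showed it well above background, and IVF was at least 97.1-fold brighter than OC. On the 8 TSA(–) arrays the lowest, median and highest levels were −9.63, −8.84 and −1.89. Only 2 of the 8 pools of untreated clones, replicates 5 and 7, were well above background, and the other 6 gave a bound alone. All 6 TSA(+) arrays measured it, with a lowest, median and highest level of −3.63, −1.23 and −0.51. Every TSA(+) array therefore lay between the lowest IVF array and the TSA(–) median, and only TSA(–) replicate 5 reached the TSA(+) range.

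Hand1, a bHLH factor of the trophoblast and the heart, was measured in most clones. Its lowest, median and highest levels were −1.01, −0.25 and 0.45 in IVF and −7.98, −2.97 and −1.27 in TSA(–). The low end was TSA(–) replicate 3 alone, the sole array of the 8 on which Hand1 was not well above background. The 6 TSA(+) arrays ran from −4.07 over −2.10 to −0.48 and overlapped both groups. In OC, 1 of 7 arrays was well above background, with a group median of −7.17.

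Among the homeodomain genes, Cdx4, a caudal-type factor of the posterior body axis, was above background in few clones. Its IVF levels were −5.17, −2.49 and −1.65 at the lowest, median and highest array, all 6 well above background, and IVF was at least 5.34-fold brighter than OC, where none of the 7 arrays was. In TSA(–) 2 of 8 arrays and in TSA(+) 3 of 6 arrays were well above background. The TSA(+) arrays were split widely, from −8.62 over −6.46 to −1.23, and the highest of them lay above all IVF arrays. Dlx2, a distal-less factor of the forebrain and the jaw, was well above background on all 7 OC arrays and stood at 1.25, 1.72 and 2.06 in IVF. In TSA(–) it ran from −7.42 over −1.46 to −0.55, again with replicate 3 lowest. In TSA(+) it stood at −1.70, −1.07 and −0.39, so that no array of either clone group reached the lowest IVF array.

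Gata2, a zinc finger factor of blood stem cells and of trophoblast, was read by 2 probes that agreed in direction. With probe A_51_P516625 the lowest, median and highest levels were 1.89, 2.31 and 2.46 in IVF, −1.83, −1.41 and 1.57 in TSA(–) and 0.66, 1.20 and 2.07 in TSA(+). The other probe, A_52_P233441, gave 0.97, 1.36 and 1.92 in IVF, −2.77, −0.43 and 1.26 in TSA(–) and 0.39, 0.65 and 2.03 in TSA(+). The IVF and TSA(+) ranges overlapped for both. In oocytes they parted, with 6 of 7 OC arrays well above background by the first and 2 of 7 by the other.

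Ovol2, a zinc finger repressor that holds epithelial identity, varied little between the arrays of a group. With probe A_51_P322095, well above background on all 39 arrays, the lowest, median and highest levels were 0.14, 0.74 and 1.01 in IVF, −0.48, −0.09 and 0.27 in TSA(–) and 0.54, 1.00 and 1.20 in TSA(+). Every TSA(+) array lay above every TSA(–) array with this probe and with A_51_P322090, whose TSA(–) levels reached from −4.50 to −2.84 and TSA(+) levels from −2.82 to −2.49, as for 0.736% of all probes. For the latter the groups were parted only barely.

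Hic1, a repressor silenced in many tumours, and Gfi1, a repressor of blood and inner ear hair cells, were well above background on all arrays. Hic1 stood at 1.02, 1.42 and 2.33 in IVF, −0.60, 0.03 and 0.46 in TSA(–) and −0.01, 0.48 and 0.82 in TSA(+). Its OC mean of 0.03 ± 0.72 (SD, n = 7) and TSA(–) mean of −0.01 ± 0.36 (SD, n = 8) differed by less than their spread. Gfi1 stood at −0.37, 1.09 and 1.20 in IVF, −2.60, −1.31 and −0.10 in TSA(–) and −1.77, −0.58 and −0.27 in TSA(+). Both clone groups of Gfi1 lay for the most part between OC, with a median of −1.74, and IVF.

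Maf (c-Maf), a leucine zipper factor of the lens, of T cells and of macrophages, was dim in embryos with both probes. Probe A_51_P405167 stood at −3.67, −2.25 and −0.78 in IVF and −9.85, −5.82 and −3.54 in TSA(–), with 5 of 8 TSA(–) arrays well above background, and all 6 TSA(+) arrays were, at −5.82, −4.38 and −3.05. Probe A_51_P379230 stood at −4.56, −3.31 and −2.29 in IVF and was well above background on 3 of 8 TSA(–) and 5 of 6 TSA(+) arrays.

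The limma calls in TSA(+) are given as a description. In TSA(+), 5 of the 9 genes were called lower than in IVF, namely Bhlhe23, Cdx4, Dlx2, Gfi1 and Hic1, where 12.1% of all probes were called lower. Against TSA(–), Bhlhe23 and Ovol2 were called higher in TSA(+), where 0.0962% of all probes were. These arrays chose the genes, and nothing is read from the counts. TSA(+) and TSA(–) shared 1 slide and 3 scan days. That slide held only 1 array of each group, TSA(+) replicate 1 and TSA(–) replicate 2. There TSA(+) was higher for all member probes but Hand1 (−0.09). Within the 3 days Cdx4, Gata2 and Gfi1 were lower in TSA(+) on 1 day each. The share of all probes that were higher in TSA(+) on that slide or those days was not counted.

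The untreated clones differed from pool to pool far more for some of these genes than for others. The study's test for the selection divides by the spread within groups, TSA(–) included, so the shares below are not independent of it. The SD of Bhlhe23 over the 8 TSA(–) arrays was 2.75, against a median of 1.16 over the 3544 probes within 0.5 of its mean level, and 99.6% of those probes had a smaller SD. Replicate 5, the highest array, carried much of it, since without it the SD was 1.67 and the share 87.2%, and 6 of the 8 values were not well above background. The same share was 99.5% for Dlx2 (SD 2.36 against a median of 0.53) and 97.7% for Hand1 (2.11 against 0.64). Without replicate 3, left out after its values were seen, the SDs fell to 1.36 and 1.16 and the shares were 98.6% and 93.3%. The shares were 99.6% and 99.7% for the Gata2 probes, and 99.2% or higher, as rounded, for both whichever array was left out. Ovol2 stood apart from these, with 47.7% and 15.0% of such probes below its SDs of 0.63 and 0.23. Hic1 (57.0%) and Cdx4 (73.4%) were intermediate in TSA(–), and Gfi1 (92.4%) and Maf (87.9% and 95.1%) were high. High shares were not confined to untreated clones. In TSA(+) they were 98.3% for Bhlhe23, 98.8% for Hand1, 97.9% for Cdx4, and 95.8% and 98.9% for Gata2. Dlx2 stood at 74.95% there, and Ovol2 at 1.67% and 42.04%. In IVF the shares were 96.97% for Cdx4, 98.04% for Gfi1, 95.5% for Hic1, 97.7% for Maf A_51_P405167 and 69.6% for Ovol2 A_51_P322095. All of these were higher in IVF than in TSA(–). Bhlhe23 (83.4%), Dlx2 (77.6%), Gata2 (43.4% and 87.02%) and Hand1 (95.1%) were lower in IVF than in TSA(–). So were Maf A_51_P379230 (78.8%) and Ovol2 A_51_P322090 (21.6%). In Spi-C 0.1 the Gata2 shares were 98.98% and 99.59%. These shares are descriptions, and the probes of an array are not independent of each other.

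Counted per array, all 12 probes were well above background on each of the 6 IVF arrays. The lowest, median and highest counts were 6, 10 and 11 of 12 on TSA(–) arrays, 10, 11.5 and 12 on TSA(+) arrays, and 5, 6 and 9 on OC arrays. TSA(–) replicate 3 gave the 6. It was the sole array on its slide and on its scan day, its median level over the members was −7.42, and the other 7 TSA(–) arrays lay between −2.60 and −1.40. Of all probes on that array 67.9% were well above background, inside the range of the other TSA(–) arrays. The part of slide or day in its low values was not tested. Without it the median difference over the 9 genes for TSA(+) minus TSA(–) was 0.87 in place of 1.41. Over the Spi-C arrays the counts were 10, 11 and 12 for Spi-C 1.0 and 9, 10 and 11 for Spi-C 0.1, and Cumulus gave 4, 4 and 6.

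**Figure D2:**
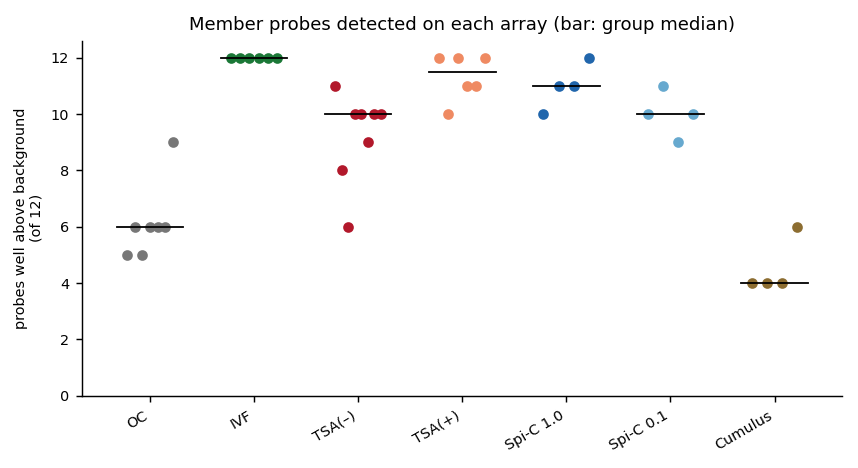
Number of the 12 probes of the 9 genes that were well above background on each array (vertical axis, count) by group (horizontal axis), 1 point per array, with the group median. All IVF arrays show 12, the Cumulus arrays show 4 to 6, and TSA(–) replicate 3 shows 6.

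Whether the amount of Spi-C mRNA changed the genes was tested between arrays that had no part in their selection. The spread was estimated over all 7 groups together, so the SEs and p values also draw on the arrays that chose the genes. At an adjusted p under 0.01, 0 of the 9 genes differed between Spi-C 1.0 and Spi-C 0.1 by limma, where 0.00506% of all probes, 2 of 39517, were called. At an unadjusted p under 0.05, 2 genes, Bhlhe23 and Gata2, and 1289 of the 39517 probes passed. The 2 genes differed in opposite directions, and the other 7 did not pass at that level.

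Bhlhe23 stood at −2.98, −1.63, −3.49 and −2.20 on the Spi-C 1.0 arrays, all well above background. On the Spi-C 0.1 arrays it stood at −8.70, −5.54, −8.25 and −8.41, and only replicate 2 was well above background. The doses did not overlap, as for 1.84% of all probes in that direction. The difference was 5.15 (SE 1.01, 95% interval 3.09 to 7.20), with an unadjusted p of 1.31e-05 and a limma adjusted p of 0.104. Within the slides, each with 2 arrays of each dose, the difference was 4.81 and 5.48. The adjusted p ran from 0.0115 to 0.476 over the limma alternatives, and it passed in none of them at 0.01. The difference was 2.47 with normexp background correction. The study's own kind of test, Tukey's HSD after a test over all groups, gave a p of 0.000454. Tukey's p is corrected over the pairs of groups of a probe, and only the test over all groups was adjusted over probes. The Spi-C 1.0 arrays lay within the TSA(+) range, but all except the highest also lay within the wide TSA(–) range of −9.63 to −1.89. The Spi-C 0.1 arrays lay within the TSA(–) range and below the TSA(+) range. The Spi-C and TSA arrays were read on different scanners.

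Gata2 lay the other way. With A_51_P516625 the Spi-C 1.0 arrays stood at −3.32, −5.64, −6.39 and −3.70 and the Spi-C 0.1 arrays at −2.43, 0.35, −0.72 and −0.87, all well above background. The difference was −3.84 (SE 0.84, 95% interval −5.54 to −2.14), with a limma adjusted p of 0.229 and an unadjusted p of 5.60e-05. With A_52_P233441 the levels were −3.83, −2.07, −1.53 and −2.47 at 1.0 mg/ml and −0.48, 1.28, −0.68 and 0.75 at 0.1 mg/ml, a difference of −2.69 (SE 0.69, 95% interval −4.09 to −1.30) with a limma adjusted p of 0.565. The doses did not overlap with either probe, as for 1.52% of all probes in that direction. Within slides both probes differed the same way, by −3.44 and −4.25 and by −3.35 and −2.03. Tukey's HSD gave p values of 0.00166 and 0.00950, not adjusted over probes. The adjusted p over the limma alternatives ran from 0.0161 to 0.796 and from 0.0467 to 0.997.

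The remaining members were not called, and most had wide intervals. For Hand1 the 4 levels were −2.08, −2.81, −3.61 and −2.48 at 1.0 mg/ml and −2.01, −1.99, −2.94 and −2.66 at 0.1 mg/ml, a difference of −0.35 (95% interval −2.05 to 1.36). Dlx2 differed by −0.10 (−2.08 to 1.89), Cdx4 by 0.10 (−2.14 to 2.34) and Maf by 0.22 (−1.89 to 2.33) and 1.25 (−0.87 to 3.37). Ovol2 was bounded closely, by −0.46 to 0.87 and −0.37 to 0.44 around 0.20 and 0.04, as was Hic1 at −0.32 (−1.01 to 0.37). Gfi1 differed by −0.17 (−1.25 to 0.91).

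**Figure D3:**
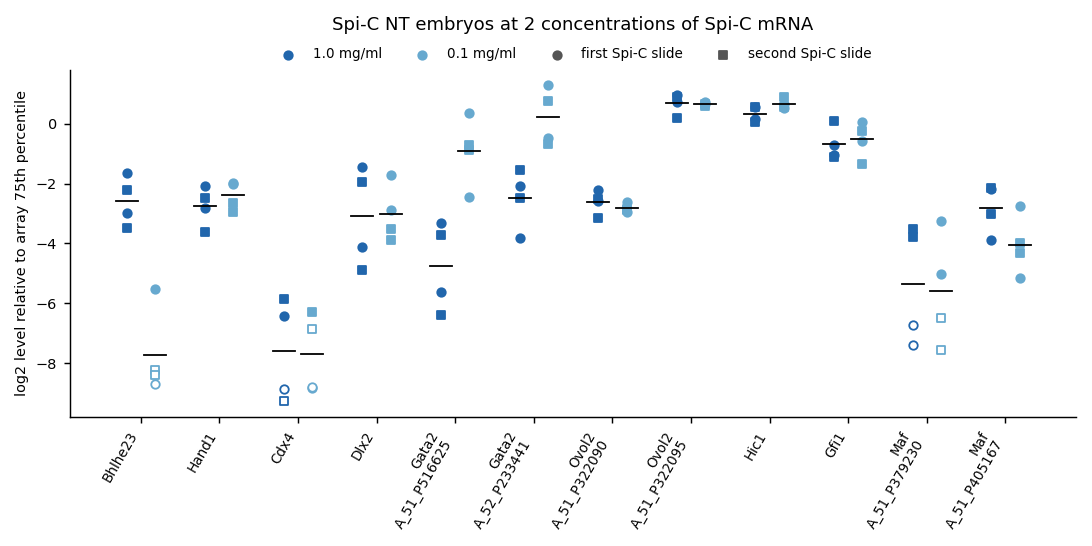
Level (log2 processed signal minus the array's 75th percentile) of each of the 12 probes on the 4 Spi-C 0.1 and the 4 Spi-C 1.0 arrays, 1 point per array, open where not well above background, with the shape giving the slide and a bar the group mean. The doses do not overlap for Bhlhe23 and for both Gata2 probes, and they overlap for the other 9 probes.

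In the donor cells the set was mostly dark, and Spi-C NT embryos were compared with these cells, which gave the nuclei. The genes had been chosen as high in fertilized embryos, the study's test over groups had included Cumulus, and probes entered the fit through an intensity on an embryo array, so higher calls in embryos were favoured and their count is a description. In the Cumulus arrays Bhlhe23, Hand1, Cdx4, 1 Gata2 probe, 1 Ovol2 probe and 1 Maf probe were well above background on none of 4 arrays. By limma, 7 of the 9 genes were higher in Spi-C NT than in Cumulus at an adjusted p under 0.01, where 34.0% of all probes were called higher and 23.2% lower. The count was 5 with median centring (without Bhlhe23 and Gfi1) or normexp (without Bhlhe23 and Dlx2), and 6 by Tukey's HSD (without Bhlhe23). Cumulus arrays shared neither slide nor scan day with any other group, so slide, scan day and group cannot be told apart here.

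The 7 genes were Bhlhe23, Hand1, Dlx2, Gata2, Ovol2, Hic1 and Gfi1. Hand1 differed by 5.83 (SE 0.73, limma adjusted p = 8.24e-09), with Cumulus levels of −8.00, −8.73, −8.20 and −8.65, and it was at least 13.2-fold brighter in Spi-C 1.0 and at least 16.8-fold in Spi-C 0.1. Ovol2 differed by 5.16 and 5.08 (limma adjusted p = 5.23e-18 and 4.88e-24), and its brighter probe stood at 0.73, 0.95, 0.88 and 0.18 in Spi-C 1.0, 0.66, 0.71, 0.58 and 0.65 in Spi-C 0.1, and −4.35, −4.54, −4.32 and −4.43 in Cumulus. By both probes every Spi-C NT array lay above every Cumulus array, as for 31% of all probes. Gata2 differed by 4.99 and 7.004 (limma adjusted p = 1.90e-07 and 8.71e-13), and by the probe A_52_P233441 Spi-C 0.1 was at least 102.5-fold brighter than Cumulus.

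Dlx2 differed by 4.75 (SE 0.84, adjusted p = 6.80e-06 by limma), with 1 Cumulus array well above background. Hic1 was present in the donor cells, at −0.74, −1.57, −2.25 and −1.14, and differed by 1.92 (SE 0.29, adjusted p = 4.48e-07 by limma). Gfi1 was present there too, at −2.39, −2.75, −1.99 and −4.22, and differed by 2.23 (SE 0.46, adjusted p = 6.04e-05 by limma). Bhlhe23 differed by 3.42 (SE 0.88, adjusted p = 0.000858 by limma), and Spi-C 1.0 was at least 14.9-fold brighter than Cumulus. Its difference rested on that dose, since Spi-C 0.1 differed from Cumulus by 0.85 with 1 of 4 arrays well above background. It was 0.28 with normexp (adjusted p = 0.487 by limma), and the p by Tukey's HSD was 0.0667. Cdx4 differed by 1.08 (95% interval −0.86 to 3.02, adjusted p = 0.337 by limma).

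Maf was read in opposite directions by its probes. With A_51_P405167 the Cumulus arrays stood at 3.13, 2.61, 1.08 and 3.02, far above the Spi-C NT arrays, which ran between −5.15 and −2.14, a difference of −5.89 (SE 0.90, limma adjusted p = 5.41e-07). With A_51_P379230 no Cumulus array was well above background and the difference was 3.19 (SE 0.90, limma adjusted p = 0.00223). The gene was therefore not counted in either direction. The blood and immune cell markers on the Cumulus arrays had a summed level between 4.70 and 6.79, against 1.28 to 1.65 in Spi-C 1.0 and 0.78 to 1.56 in Spi-C 0.1, with all 7 of the markers on the array well above background on every Cumulus array. Macrophages are known to express Maf. The part of such cells in the Maf value was not tested.

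The identity of the samples was checked by their markers. Summed cumulus markers, all 11 well above background on every Cumulus array, lay between 8.35 and 8.51 there and at or below 3.50 in all embryos and oocytes. Oocyte markers lay between 11.5 and 12.3 in OC and between 0.17 and 1.05 in Cumulus, where Bmp15, Mos, Nlrp5 and Oosp1 were on no array above background. The 2-cell markers lay between 7.40 and 7.88 in IVF, 5.33 and 6.97 in TSA(–) and 6.16 and 7.14 in TSA(+). They lay between 5.70 and 6.17 in Spi-C 1.0 and between 5.40 and 6.21 in Spi-C 0.1. In OC they lay between 4.90 and 5.55, with all 5 on the array well above background on every OC array. The OC range overlapped those of TSA(–) and Spi-C 0.1, so these markers did not part oocytes from all clones. Their part in the members' levels was not tested.

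The nearest relatives of the 9 genes were tested in all contrasts, since the study had not selected them. Of 28 relatives, 27 were on the array. For TSA(–) against IVF, limma called 7 lower, among them Olig1, Bhlhe22 and Cdx2, and 1 higher, Gata1, beside 11.2% and 9.49% of all probes. Relatives and partners were counted as genes, by any 1 of their probes, while the shares beside them are over single probes. The median over the relatives was −0.59, beside −0.04 over all probes. Olig1, an oligodendrocyte bHLH factor close to Bhlhe23, was the clearest. It stood at −0.21 ± 0.29 (SD, n = 6) in IVF and was well above background on none of 8 TSA(–) arrays, a difference of −8.45 (SE 0.36, limma adjusted p = 3.74e-19) and at least 111-fold. Unlike Bhlhe23, it was well above background on only 1 of 6 TSA(+) arrays, at a mean of −8.57 ± 1.31 (SD, n = 6).

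Bhlhe22, the closest relative of Bhlhe23 and a factor of cortical and spinal neurons, differed by −5.76 in TSA(–) minus IVF (SE 0.50, limma adjusted p = 4.63e-11), with 1 of 8 arrays well above background, and in TSA(+) it was on none of 6, at least 20.9-fold dimmer than in IVF. Cdx2, the trophectoderm relative of Cdx4, differed from IVF by −5.47 in TSA(–) (7 arrays, since 1 spot was an outlier) and by −7.83 in TSA(+) (limma adjusted p = 5.29e-06 and 1.73e-08). Gata1 was higher by 0.68 in TSA(–) (limma adjusted p = 0.00936) and by 1.06 in TSA(+). The TSA(–) call was lost in 14 of 25 alternatives, with limma adjusted p values up to 0.161 and 0.0241 by Tukey's HSD. In TSA(+) against IVF, 7 relatives were lower and 2 higher, Gata1 and Gfi1b (1.26, limma adjusted p = 0.00944), beside 12.1% and 8.99% of all probes. The Gfi1b call was lost in 14 of 23 alternatives (0.0348 by Tukey's HSD).

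Between TSA(+) and TSA(–), 0 of 27 relatives and 0 of 12 partners were called by limma, beside 0.288% of all probes, with 6 relatives and 3 partners at an unadjusted p under 0.05, and Tukey's HSD also called 0. Their median difference was −0.13 for relatives and 0.07 for partners. For IVF against OC, 13 relatives were higher and 9 lower, beside 23.8% and 43.2% of all probes. Olig1 (6.93, at least 32.7-fold) and Maff, a small Maf protein (5.36), led the higher ones.

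Of the 12 partners, counted as genes by any 1 of their probes, 3 were higher in TSA(–) than in IVF and 1 was lower. Of all single probes, 9.49% and 11.2% were. Tcf4, an E protein that dimerizes with bHLH factors, had with 1 of its 3 probes, A_51_P265137, a mean of 0.79 in OC, −3.62 in IVF, −0.58 in TSA(–) and −1.57 in TSA(+). With that probe it was 3.04 higher in TSA(–) than in IVF (SE 0.37, adjusted p = 5.61e-08 by limma), while the other probes differed by 0.21 and 0.52 (adjusted p = 0.779 and 0.645 by limma). Kdm1a, the LSD1 demethylase that works with Gfi1 and Rcor1, differed by −4.39 in IVF minus OC and by 0.48 in TSA(–) minus IVF (adjusted p = 0.00111 by limma). Sirt1, a deacetylase partner of Hic1, was higher in TSA(–) by 0.77 with 1 probe (adjusted p = 0.00735 by limma), and its other probe differed by −0.08 (adjusted p = 0.916 by limma). That call was lost in 13 of 25 alternatives, with limma adjusted p values up to 0.151 and 0.0201 by Tukey's HSD. Fos, a possible partner of Maf, differed by −3.44 in TSA(–) minus IVF (adjusted p = 5.88e-10 by limma). For IVF against OC, 6 partners were lower and 1 higher, Rcor1, by 4.94 with 1 probe and 0.55 with the other (adjusted p = 0.113 by limma). In TSA(+) against IVF, 4 were higher and 2 lower. Rcor1 was higher there by 1.38 with the first probe (adjusted p = 0.00450 by limma, 0.0156 by Tukey's HSD) and differed by 0.05 with the other (adjusted p = 0.930 by limma).

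Against TSA(–), Spi-C NT differed in few relatives and partners, with the scanner as a limit. Bhlha15 differed by −1.79 with 1 probe (limma adjusted p = 0.00620) and by 0.65 with the other (0.0149). Zfpm1, a Gata cofactor, was higher by 0.83 (limma adjusted p = 0.00261), and Tcf12, an E protein, by 0.51 with 1 probe (limma adjusted p = 0.00306) and 0.34 with the other (0.225), beside 9.76% of probes higher and 6.18% lower. These calls did not hold under every alternative setting, as with the replicate block. Among the members, Maf and Ovol2 were called higher and Gata2 lower, a description. Maf differed by 2.73 with A_51_P405167 (limma adjusted p = 0.00559) and 1.20 with the other probe (0.244). Gata2 differed by −2.25 with A_51_P516625 (limma adjusted p = 0.00429) and −0.59 with the other (0.403). With A_51_P516625 the Gata2 mean was −4.76 in Spi-C 1.0, −0.92 in Spi-C 0.1 and −0.59 in TSA(–).

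**Figure D4:**
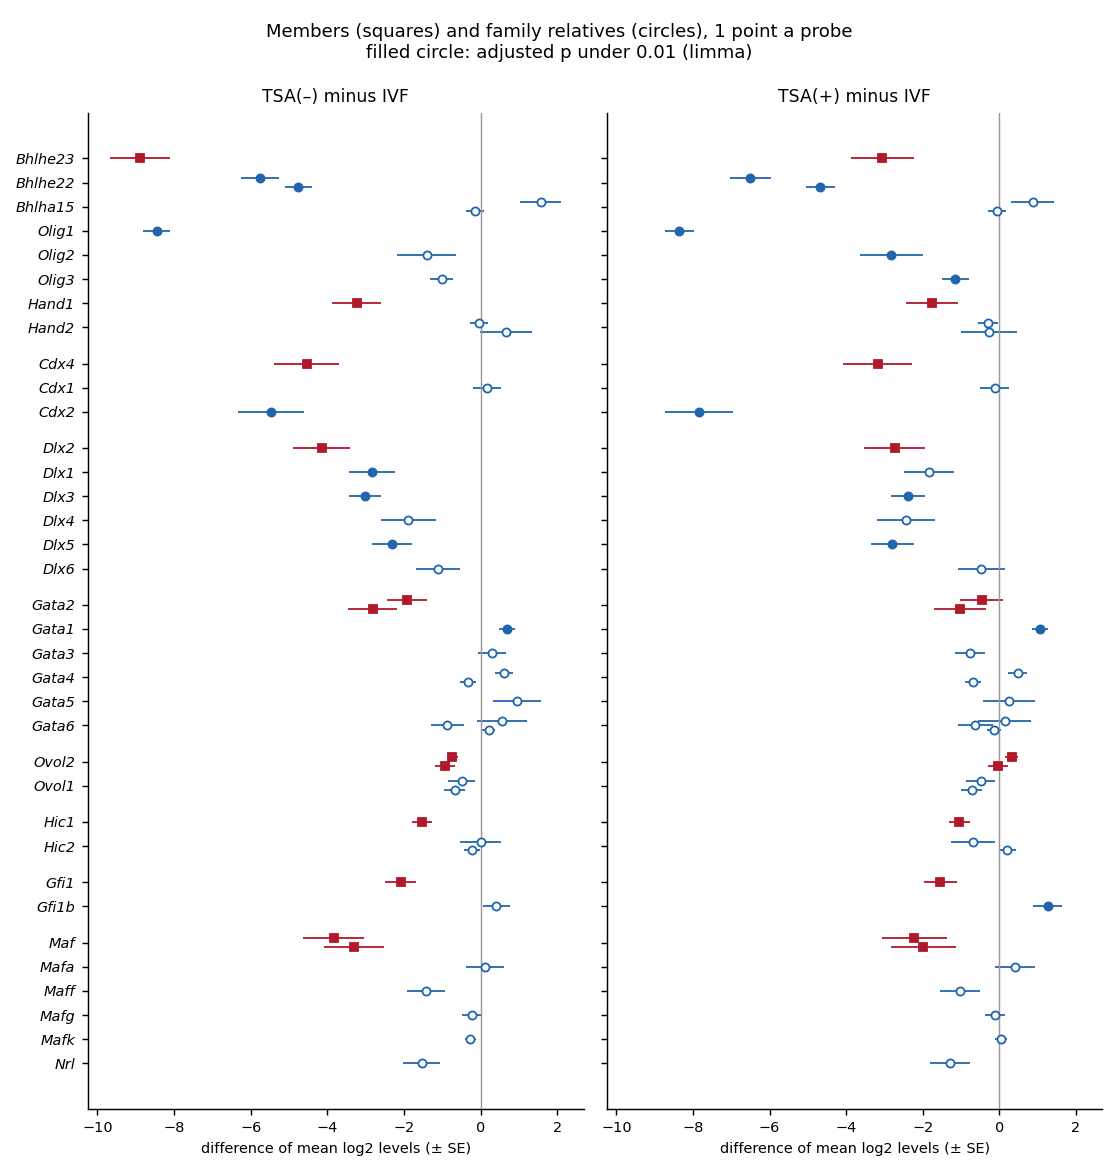
Log2 difference, for TSA(–) minus IVF and TSA(+) minus IVF, of the members (squares) and the relatives named on the axis (circles, filled at a limma adjusted p under 0.01), 1 point a probe, grouped by family, with the SE. The members lie below 0 in TSA(–) because they were chosen so, while of the relatives Olig1 lies at −8.45, Cdx2 at −5.47 and Bhlhe22 at −5.76 with its lower probe.

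The genes whose levels ran most like each member over the 39 arrays were picked by Pearson correlation among 20292 probes well above background on every IVF array. Since the arrays share groups, these correlations follow group means and are a description. Ovol2 ran closest to others, with Usp50 and AF067063, both at 0.98. Hand1 ran with Iqcf1 (0.90) and Cst9 (0.89), Gata2 with Elf3, an epithelial ETS factor (0.87), and Uncx (0.85), and Dlx2 with the homeobox gene Dbx1 (0.86) and Phf11d (0.85). Maf, by probe A_51_P405167, which was bright in Cumulus, ran with Nexmif (0.86) and Tma7 (0.85). The other Maf probe, well above background on no Cumulus array, was not compared. Hic1 ran with Dmbx1 (0.84) and Gbx1 (0.83), and Gfi1 with Dmrt1 and Dmbx1 (0.81 each). Bhlhe23 ran with Tsga8 (0.82) and Hspa2 (0.79), and Cdx4 with Spin2d and Tsga8 (both 0.78).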

How the data were processed

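RNA of 39 pools was amplified linearly in 2 rounds, labelled with Cy3 and hybridised to 1-colour Agilent whole mouse genome arrays with 41174 probes. The intensity values were made by the authors with Agilent Feature Extraction (per the file headers 9.5.3.1 for the OC, IVF, TSA(–) and TSA(+) arrays and 10.5.1.1 for the others, while the submitters' processing notes list 9.5.3.1), and the scanner files were deposited one per array. The authors normalized the values in GeneSpring GX and deposited a log2 table of them, used here only as an alternative; its columns correlated with the rescaled scanner values at 0.9997 or more and had medians from −0.30 to 1.08.

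Here each log2 processed intensity (background-subtracted) was set relative to its array's 75th percentile. Control spots and outlier spots (1820 missing values) were dropped, spots of 1 probe were averaged, and 39517 probes with an intensity of at least 10 on at least 1 fertilized or cloned array were tested. Groups came from the labels. All 7 groups were fitted together with limma 3.58.1 (R 4.3.3, statmod 1.5.0), two-sided, and called at a Benjamini-Hochberg adjusted p under 0.01. A gene counted as called where at least 1 of its probes was called and none the other way. The shares given beside counts of genes are over probes, so a gene with several probes had more chances of a call. Tables and figures were made with Python 3.11.15. The fit was tested on simulated data.

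Probes were named by their accession through the RefSeq mouse annotation: 27861 of 41174 had a symbol, and 32 were given different accessions by the 3 versions of the array design. An "at least" fold sets the bright group's mean against the higher of the dim probe's signal and the lowest signal well above background on each dim array. The members, their relatives (paralogs), their partners and the cell markers were chosen with earlier results of these data known. Named relatives and partners are, in each comparison, the 3 with the largest change each way among those called, and others are given in counts. Genes named beyond that rule in a comparison (among them Cdx2 in TSA(–), Gata1 in TSA(+), and Kdm1a and Fos in TSA(–)) were chosen after their values were seen. For 1 relative that entered the counts and medians, values are not reported here. Likeness was Pearson's r to the brightest probe of each member. Alternatives were other scalings and background correction, filters, samples, thresholds, blocks, Tukey's HSD and each array left out. Every p by Tukey's HSD is corrected over the pairs of groups of a probe, and only the test over groups before it was adjusted over probes.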

Additional observations from a re-analysis of the deposited data

Results flagged for a closer look

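In 3 of the 84 sets of 4 to 10 arrays tested, 1 array stood far from the rest by Dixon's criterion, which chance alone meets in about 1 of 20 sets. Bhlhe23 in Spi-C 0.1 replicate 2 was −5.54, and the next array was at −8.25 (gap 0.857 of the range, critical value 0.829). It is the sole Spi-C 0.1 array with Bhlhe23 well above background. Hand1 in TSA(–) replicate 3 was −7.98, and the next array was at −4.24 (0.557 against 0.526). It is the array on which 6 of the 12 probes were well above background. Dlx2 in OC replicate 1 was −4.06, and the next array was at −1.92 (0.694 against 0.568).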

How the results depend on the processing

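Of 1440 recomputed values of 64 results, 1306 kept their direction and side of the threshold, or stayed within the stated spread, and 134 did not.

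For Spi-C 1.0 against Spi-C 0.1, Tukey's HSD called 1 gene higher (Bhlhe23) and 1 lower (Gata2), where limma called 0. The share of all probes that Tukey's HSD called was not counted, and nothing is read from these calls. Small differences turned sign: Ovol2 A_51_P322095 was −0.0387 with arrays centred on the median and −0.0129 with normexp background correction, and Dlx2 was 0.00147 with normexp. With single arrays left out, Cdx4 ran from −0.48 to 0.65, Dlx2 from −0.65 to 0.50, Gfi1 from −0.44 to 0.0220, Maf A_51_P379230 from −0.44 to 0.99 and Ovol2 A_51_P322095 from −0.0529 to 0.21. Bhlhe23 ran from 4.82 to 5.88.

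For Spi-C NT against Cumulus, 1 gene was called lower with median centring, normexp or Tukey's HSD, where the main analysis called 0, since Maf then was called by A_51_P405167 alone. With normexp Cdx4 was −0.95 and Maf A_51_P379230 was −0.0442. With normexp dim values lie closer to a floor, and differences of dim probes shrink by construction.

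For relatives and partners together, IVF against OC gave 14 higher and 15 lower, and 9 and 24 with normexp. TSA(–) against IVF gave 4 higher and 8 lower. At an adjusted p under 0.05 it gave 7 and 15, with normexp 14 lower, and with the slide as a block 1 higher, with the replicate block 2 higher and with Tukey's HSD 2 higher. TSA(+) against IVF gave 9 lower, and 15 at an adjusted p under 0.05, 16 with normexp and 14 with only the groups compared. Spi-C NT against TSA(–) gave 2 higher and 1 lower. At an adjusted p under 0.05 it gave 4 higher, with quantile normalization 2 lower, with median centring 0 higher and 3 lower, with normexp 16 lower, with only the groups compared 5 higher and 2 lower, with the replicate block 0 higher, and with Tukey's HSD 0 lower. The cause of these changes was not tested.

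With single arrays left out, TSA(–) against IVF gave 2 to 4 higher (2 without IVF replicate 1 or 4 or without TSA(–) replicate 3, 6, 7 or 8) and 8 to 10 lower. Spi-C NT against TSA(–) gave 0 to 1 lower (0 without TSA(–) replicate 2, 3, 4, 7 or 8, Spi-C 1.0 replicate 4, or Spi-C 0.1 replicate 1, 3 or 4). IVF against OC gave 13 to 14 higher and 13 to 15 lower.

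The median difference over the members for IVF minus OC was 3.65 with median centring and 2.13 with normexp, for TSA(–) minus IVF −1.99 in place of −3.24 with normexp, and for TSA(+) minus TSA(–) 0.84 with normexp and 0.87 to 1.67 with single arrays left out (0.87 without TSA(–) replicate 3).

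Replicate numbers did not pair the arrays: over the comparisons the correlation of same-numbered arrays' deviations ran from −0.09 to 0.08, and the block changed no other count by over 1.5 times. The correlation within slides was 0.0270 and within scan days 0.00247. The scan day block gave no value for Spi-C NT against Cumulus, whose arrays share no day. Signals of Bhlhe23, Cdx4 and Maf in clones were often not above background, so that their differences are bounds there.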
